A study of Mus musculus with 18 samples.

Results

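The genes of the p53 response and of growth arrest Cdkn1a, Mdm2, Trp53inp1, Ccng1, Phlda3, Eda2r, Bax, Bbc3, Fas and Gadd45b, were followed across 18 mouse livers. These 10 were taken by gene symbol from a table of 16245 genes by a rule that names the genes and sets no limit on their values, though with earlier results of these data known, and every one of them was found. Liver RNA was sequenced from wild-type mice labelled C57BL/6 that had been kept from 8 weeks of age at about 29 °C on a NASH diet, a feed rich in fat and fructose that produces fatty and inflamed liver. They were males on the C57BL/6J background. Of the 18 mice, 6 had vehicle (Vehicle), 6 had recombinant GDF15 injected under the skin once a day (GDF15), and 6 were pair-fed (PairFed), that is, each day they were given only as much food as GDF15-treated mice had eaten on the previous day. The mice lived singly and had been allotted to groups at random after matching for weight and body composition. All 3 groups shared diet and warmth, so no lean or chow-fed liver was among them, and the labels give a set of doses without saying which one each of these mice had.

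p53 is a transcription factor that is held low in healthy cells by Mdm2, an enzyme that tags it for destruction, and that accumulates after DNA damage and other stress. It then switches on genes that stop the cell cycle, repair DNA, feed back on p53 itself or prepare cell death. In fatty liver disease, p53 and its target p21, the product of Cdkn1a, are known from injured and ageing hepatocytes, although several of these genes are also driven by signals other than p53.

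Of the 10 genes, 4 fell with GDF15 relative to vehicle, where 33.3% of all tested genes changed and 17.5% fell, and none rose. These were Phlda3, a brake on the kinase AKT, to 0.289 times the vehicle level, Eda2r, a receptor of the tumour necrosis factor family, to 0.357 times, Bax, a protein that opens the mitochondrial membrane in apoptosis, to 0.774 times, and Ccng1, cyclin G1, to 0.82 times. Phlda3, Eda2r and Ccng1 also fell relative to pair-fed mice, 3 of 10 where 27.1% of all tested genes changed and 13.8% fell. Cdkn1a, the classical arrest gene, had a mean of 267 normalized counts with GDF15 against 570 with vehicle, but its spread between mice was so wide that the difference did not pass the test. None of the 10 passed between pair-fed and vehicle mice.

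p53 binds a pair of 10-letter repeats known as its response element, each repeat having a core of 4 letters flanked by purines on one side and pyrimidines on the other. The RefSeq promoter windows of mouse genome GRCm38.p6, from 250 bases before to 50 after a transcription start, were searched on both strands for the p53 decamer consensus without mismatch, and for pairs of decamers 0 or 1 bases apart with at most 2 mismatches outside the cores. Windows were there for 9 members, and Trp53inp1 had none. The pair was in the window of 2 members, Cdkn1a and Bax, against 0.378% of all 26994 genes with a window. At least 1 decamer without mismatch was in 4 members, these 2 together with Mdm2 and Ccng1, against 9.55% of all genes. The window of the first Cdkn1a start held 2 such decamers, of which 1 belongs to its pair. The window of the second Cdkn1a start held neither a decamer without mismatch nor a pair. The sequences of Cdkn1a and Bax are shown because they hold a full pair, with the decamers in capitals and any base between them in lower case, read 5′ to 3′ on the strand of the gene. The Cdkn1a stretch is chr17:29090898-29090977 (plus strand), and its pair starts 51 bases upstream of the first of 2 RefSeq starts and has 1 mismatch. The Bax stretch is chr7:45467049-45467129 (minus strand), and its pair starts 201 bases upstream and has 2 mismatches.
Cdkn1a: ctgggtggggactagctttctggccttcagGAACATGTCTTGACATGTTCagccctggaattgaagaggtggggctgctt
Bax: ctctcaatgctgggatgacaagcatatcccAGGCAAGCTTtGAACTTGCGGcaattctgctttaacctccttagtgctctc

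Mdm2 and Ccng1 held a single decamer, shown in capitals, at chr10:117710915-117710964 (minus strand) and chr11:40755442-40755491 (minus strand). The members with the largest falls of the 10, Phlda3 and Eda2r, had no decamer without mismatch anywhere in their windows, and the last 80 bases before their RefSeq starts are printed for comparison, at chr1:135766005-135766084 (plus strand) and chrX:97377210-97377289 (minus strand). Bbc3, Fas and Gadd45b had none either. A match of letters is a description and not a bound site, many p53 sites lie outside such short windows, and because the counts are per gene, it cannot be told which Cdkn1a start was in use.
Mdm2: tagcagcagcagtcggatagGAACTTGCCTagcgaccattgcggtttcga
Ccng1: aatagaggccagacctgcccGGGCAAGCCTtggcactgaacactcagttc
Phlda3: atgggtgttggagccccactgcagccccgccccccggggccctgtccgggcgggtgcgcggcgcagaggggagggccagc
Eda2r: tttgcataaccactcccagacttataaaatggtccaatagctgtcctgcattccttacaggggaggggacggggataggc

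Estimated counts summed to between 16508864 and 35301853 per library, and the pair-fed libraries of replicates 1 to 3 were the 3 smaller of their group and those of replicates 4 to 6 the 3 larger. Values below are normalized counts, which are counts divided by a size factor for each library, with means ± SD (n = 6 mice per group). Fold changes are on the log2 scale with their standard error from DESeq2 fitted to all 18 livers, and a gene is said to fall or rise when its Benjamini-Hochberg adjusted p over all genes was under 0.05. The genes tested were 14667 between GDF15 and vehicle mice, 14353 between GDF15 and pair-fed mice and 16242 between pair-fed and vehicle mice, of which 0% changed. The counts of 4 and 3 of 10 members are thus near the shares of all genes that changed in either direction, and above the shares that fell. With a log2 change beyond 1 required as well, 2 of 10 members (Phlda3 and Eda2r) passed in each GDF15 comparison, where 6.27% of all genes passed against vehicle and 3.37% against pair-fed mice. The median log2 change of the members was -0.33 against vehicle, -0.18 against pair-fed mice and -0.16 between pair-fed and vehicle mice, where the median over all genes was 0.00 in each. Both GDF15 comparisons rest on the same 6 GDF15 livers and are not independent of each other. In whole liver, fewer cells of a type and less RNA per cell cannot be told apart.

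**Figure D1:**
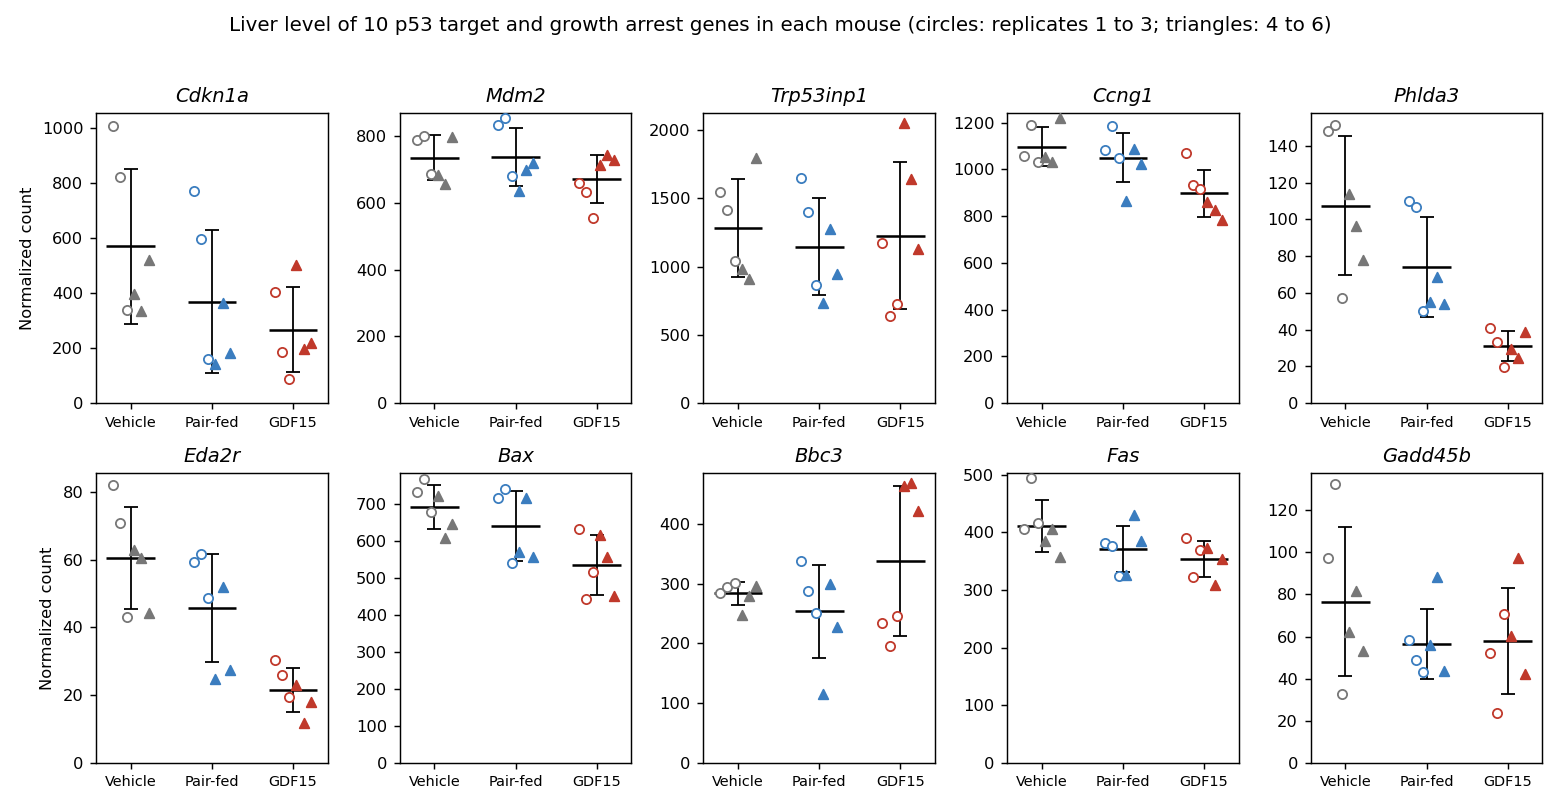
Normalized count of each of the 10 genes (vertical axes, starting at 0) in every mouse by group (horizontal axes), with open circles for replicates 1 to 3, triangles for replicates 4 to 6, and black lines and bars for the group mean ± SD (n = 6). Phlda3 in GDF15 livers stays at or below 40.7 while vehicle and pair-fed livers start at 57.0 and 49.98, and Bbc3 in GDF15 livers falls into 3 values at or below 246 and 3 at or above 422.

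Phlda3 encodes a small protein that competes with AKT for membrane lipids and so restrains survival signalling. In vehicle livers it ranged from 57.0 to 151 normalized counts with a median of 105, in pair-fed livers from 49.98 to 110 with a median of 61.9, and in GDF15 livers from 19.4 to 40.7 with a median of 31.3. Every GDF15 liver was thus below every liver of the other groups. Its fall was -1.79 ± 0.27 (SE) against vehicle (DESeq2 adjusted p = 2.9e-09) and -1.24 ± 0.27 against pair-fed mice (DESeq2 adjusted p = 9.15e-05). Between pair-fed and vehicle mice the difference was -0.55 ± 0.26 (DESeq2 unadjusted p = 0.0337, adjusted p = 0.998), with 3 pair-fed livers below every vehicle liver.

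Eda2r, on the X chromosome, encodes the receptor for ectodysplasin A2 and is a death receptor in some cells. It ran from 43.1 to 82.2 in vehicle livers (median 61.6), from 24.7 to 61.9 in pair-fed livers (median 50.4) and from 11.7 to 30.3 in GDF15 livers (median 21.3). All 6 GDF15 livers lay below the vehicle range, and 4 of 6 lay below the pair-fed range, which 2 low pair-fed livers, replicates 4 and 6, stretched downwards. The fall was -1.49 ± 0.27 against vehicle (DESeq2 adjusted p = 7.95e-07) and -1.06 ± 0.27 against pair-fed mice (DESeq2 adjusted p = 0.000965), the latter being lost with only the 3 larger pair-fed libraries (-0.67). Eda2r was a low gene, with 9 to 35 estimated counts in GDF15 libraries, so that single values carry a sizeable counting error. Non-overlap of all 6 with all 6, with GDF15 lower, was found for 6.94% of genes against vehicle and for 5.23% against pair-fed mice, and among the members it held for Phlda3 and Eda2r against vehicle and for Phlda3 against pair-fed mice.

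Fas encodes the other death receptor of the set, through which Fas ligand triggers apoptosis of hepatocytes. Its mean was 411 ± 45.8 in vehicle, 371 ± 40.3 in pair-fed and 353 ± 31.5 in GDF15 livers, with ranges of 357 to 494, 324 to 431 and 309 to 391. The groups overlapped, 3 GDF15 livers being below the vehicle range. The difference from vehicle was -0.22 ± 0.09 and just missed the threshold (DESeq2 adjusted p = 0.0532), while edgeR placed it past the threshold, as did leaving out Vehicle replicate 6 or GDF15 replicate 1 in DESeq2. Against pair-fed mice it was -0.07 ± 0.09 (DESeq2 adjusted p = 0.606, 95% interval -0.25 to 0.11).

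Bax and Bbc3 belong to the Bcl2 family, Bax as a pore former and Bbc3, also called PUMA, as a trigger that frees Bax from its inhibitors. Bax ran from 608 to 767 normalized counts with vehicle (median 698), from 540 to 740 with pair-feeding (median 642) and from 442 to 632 with GDF15 (median 536). Of the GDF15 livers 4 of 6 were below the whole vehicle range. Bax fell against vehicle by 0.37 ± 0.11 on the log2 scale (DESeq2 adjusted p = 0.00371). Against pair-fed mice the difference of -0.26 ± 0.11 missed the threshold (DESeq2 adjusted p = 0.0629), and it passed when GDF15 replicate 1 or 4 or PairFed replicate 3, 4 or 6 was left out.

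In Bbc3 the GDF15 livers fell into separate sets. Vehicle livers were close together at 248 to 300 normalized counts (median 289), pair-fed livers ran from 115 to 338 (median 270), and GDF15 livers from 196 to 468 (median 334). GDF15 replicates 1 to 3 were all below the vehicle range, with a mean of 225 ± 25.8 (SD, n = 3), and GDF15 replicates 4 to 6 all above it, with a mean of 451 ± 25.4 (SD, n = 3). Over all 6 the difference was 0.25 ± 0.23 against vehicle (DESeq2 adjusted p = 0.425) and 0.42 ± 0.23 against pair-fed mice (DESeq2 adjusted p = 0.171). These averages stand for no single GDF15 liver.

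Mdm2 and Ccng1 act back on p53, Mdm2 by ubiquitinating it and cyclin G1 through a phosphatase that acts on Mdm2. Ccng1 ran from 1032 to 1219 in vehicle livers (median 1055), from 867 to 1187 in pair-fed livers (median 1068) and from 786 to 1071 in GDF15 livers (median 887). For 5 of 6 GDF15 livers the value was below the vehicle range, the exception being replicate 1. Ccng1 fell by 0.29 ± 0.08 against vehicle (DESeq2 adjusted p = 0.00358) and by 0.22 ± 0.08 against pair-fed mice (DESeq2 adjusted p = 0.0337) on the log2 scale. The second call was lost in 7 of 12 fits that left out one liver, namely GDF15 replicate 4, 5 or 6 or PairFed replicate 1, 2, 3 or 5, over which the value ran from -0.28 to -0.18.

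Mdm2 varied little among mice, with a highest value 1.22, 1.34 and 1.35 times the lowest in vehicle, GDF15 and pair-fed livers. Its means were 735 ± 66.7, 672 ± 71.3 and 737 ± 87.5 normalized counts in that order, and its ranges of 656 to 799, 554 to 742 and 634 to 853 overlapped. The difference between GDF15 and vehicle was -0.13 ± 0.09 (DESeq2 adjusted p = 0.264, 95% interval -0.31 to 0.05), which leaves room for a fall of up to 0.31 on the log2 scale. Against pair-fed mice it was -0.13 ± 0.09 (DESeq2 adjusted p = 0.277). Trp53 itself had a mean of 505 normalized counts with vehicle and 482 with GDF15, a difference of -0.07 ± 0.06 (DESeq2 adjusted p = 0.443), and p53 protein was not measured.

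Cdkn1a and Gadd45b are arrest genes, p21 blocking cyclin-dependent kinases and GADD45 beta being a stress protein that binds kinases of the p38 and JNK pathways. Cdkn1a ranged from 334 to 1008 normalized counts in vehicle livers (median 459), from 143 to 770 in pair-fed livers (median 273) and from 89.1 to 501 in GDF15 livers (median 210). Within a group the highest liver had 3.02 (vehicle), 5.62 (GDF15) and 5.37 (pair-fed) times the lowest. Again 4 of 6 GDF15 livers were below the vehicle range, and replicates 1 and 4, at 406 and 501, were inside it. The difference was -1.10 ± 0.49 against vehicle, with a 95% interval of -2.05 to -0.14 and an unadjusted p of 0.0246 that rose to an adjusted p of 0.0678 in DESeq2. Leaving out GDF15 replicate 1 or GDF15 replicate 4 brought it past the threshold, and over all 12 such fits it ran from -1.37 to -0.86. It also passed when only the 12 livers compared were fitted (-1.10). Against pair-fed mice it was -0.47 ± 0.49 (DESeq2 adjusted p = 0.51), running from -0.75 to -0.12 without 1 liver and turning positive in replicates 4 to 6 (0.42) and with only the 3 larger pair-fed libraries (0.21). Between pair-fed and vehicle mice it was -0.63 ± 0.49 (DESeq2 adjusted p = 0.998), running from -0.98 to -0.39 without 1 liver. In both of these the error was nearly as large as the difference or larger.

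Gadd45b was low and variable, from 32.6 to 132 normalized counts with vehicle (median 71.8), 43.2 to 88.1 with pair-feeding (median 52.6) and 23.8 to 97.4 with GDF15 (median 56.2). The groups overlapped. The difference from vehicle was -0.41 ± 0.31 with GDF15 (DESeq2 adjusted p = 0.32, 95% interval -1.03 to 0.20) and -0.44 ± 0.31 with pair-feeding (DESeq2 adjusted p = 0.998), and that between GDF15 and pair-fed mice was 0.03 ± 0.31 (DESeq2 adjusted p = 0.963).

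Trp53inp1 encodes a stress protein that acts on p53 in the nucleus and on autophagy in the cytoplasm. It ran from 912 to 1793 normalized counts in vehicle livers (median 1228), from 735 to 1653 in pair-fed livers (median 1110) and from 639 to 2052 in GDF15 livers (median 1153). The GDF15 range thus enclosed the vehicle range on both sides. The difference was -0.06 ± 0.29 against vehicle (DESeq2 adjusted p = 0.895, 95% interval -0.63 to 0.51) and 0.10 ± 0.29 against pair-fed mice (DESeq2 adjusted p = 0.84), intervals too wide to tell a moderate change from none.

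**Figure D2:**
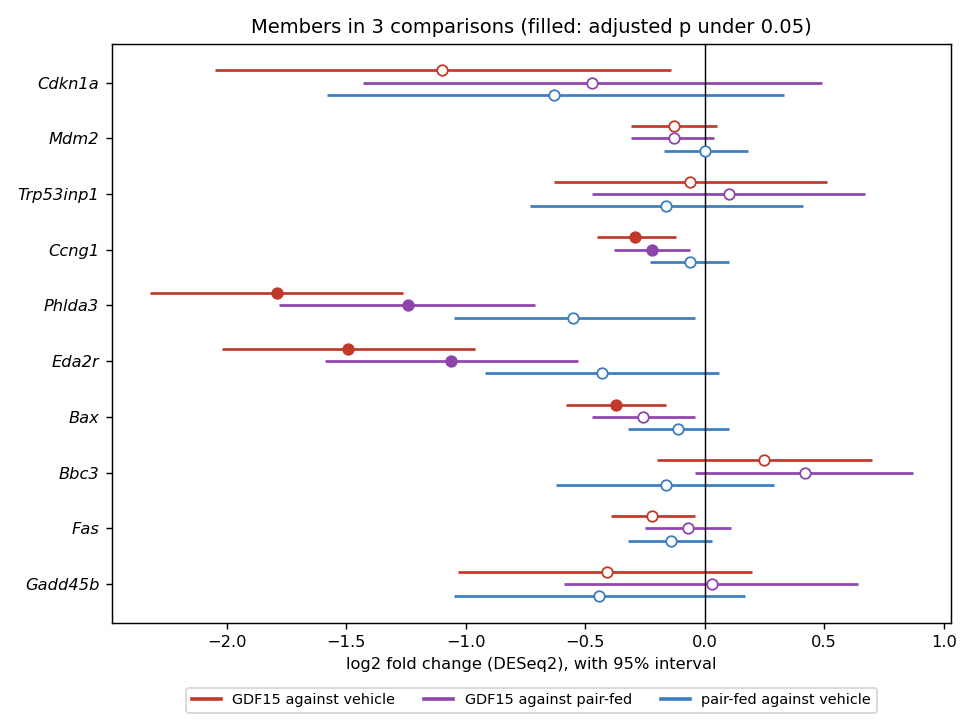
DESeq2 log2 fold change of each gene (horizontal axis; points) with its 95% interval (lines) in 3 comparisons, filled where the adjusted p was under 0.05. Phlda3 and Eda2r lie at -1.79 and -1.49 against vehicle, Bax and Ccng1 at -0.37 and -0.29, and no point of pair-fed against vehicle is filled.

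With pair-feeding alone, none of the 10 passed in DESeq2 or in edgeR, and 1 of 10, Phlda3, had an unadjusted p under 0.05. Over all genes 718 had an unadjusted p under 0.05 in DESeq2 and 620 in edgeR, with 0 past the adjusted threshold in either. The intervals show what the 6 against 6 mice could not tell apart, from -0.23 to 0.10 for Ccng1 up to -1.58 to 0.33 for Cdkn1a. Whether GDF15 moved a member differently from pair-feeding is what the comparison of GDF15 with pair-fed mice tests, and it passed for Phlda3, Eda2r and Ccng1.

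How often a mouse was the highest or lowest of its group is given as counts only, since all members of a mouse come from 1 library. Whether the same mice recur more than by chance was not tested. Vehicle replicate 2 was the highest of its group for 5 members (Mdm2, Phlda3, Bax, Fas and Gadd45b), GDF15 replicate 1 for 5 (Ccng1, Phlda3, Eda2r, Bax and Fas), and PairFed replicates 1 and 2 for 4 each. Other mice were highest for fewer members, such as GDF15 replicate 5 for 3 and Vehicle replicates 1 and 6 for 2 each. PairFed replicate 4 was the lowest of its group for 6 members (Cdkn1a, Mdm2, Trp53inp1, Ccng1, Eda2r and Bbc3).

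**Figure D3:**
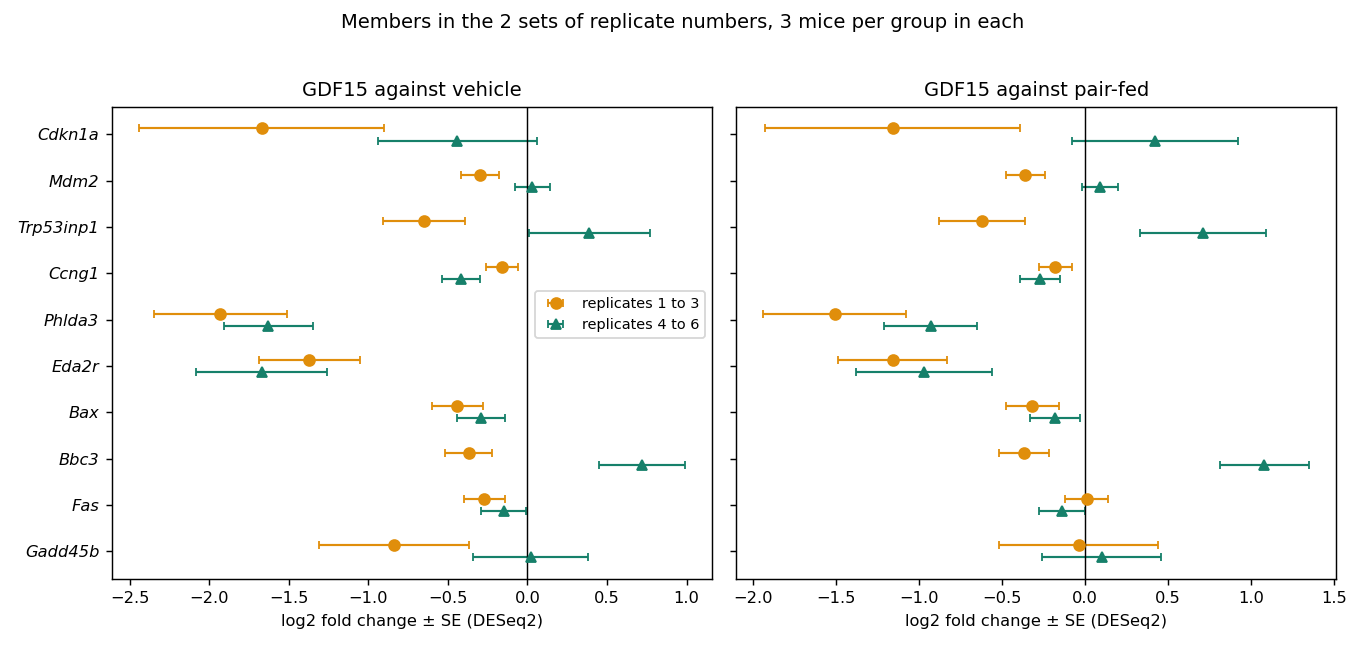
DESeq2 log2 fold change ± SE of each gene (horizontal axes) against vehicle (left) and pair-fed mice (right), fitted to replicates 1 to 3 (circles) and to replicates 4 to 6 (triangles) of every group, 3 mice per group. Bbc3 lies at -0.37 and 0.72 against vehicle in these fits, and Phlda3 at -1.93 and -1.63.

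Several members took different values by replicate number, which the titles give and which the labels tie to no batch or day. All 10 members were lower in GDF15 than in vehicle livers in replicates 1 to 3, and 6 of 10 in replicates 4 to 6, counted by direction alone. In fits to 3 mice per group, Phlda3 fell in both sets, by 1.93 ± 0.42 (DESeq2 adjusted p = 0.000141) and 1.63 ± 0.28 (DESeq2 adjusted p = 2.57e-07) against vehicle, the change against pair-fed mice being -1.51 ± 0.43 (DESeq2 adjusted p = 0.00406) and -0.93 ± 0.28 (DESeq2 adjusted p = 0.0104). Eda2r fell in both sets against vehicle, by 1.37 ± 0.32 and 1.67 ± 0.41, and against pair-fed mice it passed in replicates 1 to 3 (-1.16 ± 0.33, DESeq2 adjusted p = 0.00391) and not in 4 to 6 (-0.97 ± 0.41, DESeq2 adjusted p = 0.0866). Bbc3 was at -0.37 ± 0.15 in replicates 1 to 3 (DESeq2 adjusted p = 0.0559) and rose by 0.72 ± 0.27 in replicates 4 to 6 (DESeq2 adjusted p = 0.0392) against vehicle. Against pair-fed mice the same fits gave -0.37 ± 0.15 (DESeq2 adjusted p = 0.0536) and a rise of 1.08 ± 0.27 (DESeq2 adjusted p = 0.000968). For Bbc3 this cut falls where its own GDF15 values separate, so these p-values are no independent support for a split.

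For Trp53inp1 the GDF15 livers of these sets overlapped, with means of 846 ± 287 and 1608 ± 461 (SD, n = 3 each) and differences from vehicle of -0.65 ± 0.26 (DESeq2 adjusted p = 0.0525) and 0.39 ± 0.38 (DESeq2 adjusted p = 0.534). Ccng1 went the other way, at -0.16 ± 0.10 (DESeq2 adjusted p = 0.272) in replicates 1 to 3 and -0.42 ± 0.12 (DESeq2 adjusted p = 0.00404) in 4 to 6. Bax was at -0.44 ± 0.16 (DESeq2 adjusted p = 0.0298) and -0.29 ± 0.15 (DESeq2 adjusted p = 0.187), and Cdkn1a at -1.67 ± 0.77 (DESeq2 adjusted p = 0.106) and -0.44 ± 0.50 (DESeq2 adjusted p = 0.596). Mdm2 fell against pair-fed mice in replicates 1 to 3 (-0.36 ± 0.12, DESeq2 adjusted p = 0.0228) and was at 0.09 ± 0.11 in 4 to 6 (DESeq2 adjusted p = 0.626). Over all replicates Mdm2 did not pass (DESeq2 adjusted p = 0.277). The difference between the sets was not tested, the sets have only 3 mice per group, and among pair-fed mice they coincide with library size. For none of these members are the p-values of the separate fits support for a split.

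Levels between genes were compared per kilobase of exon (lengths from GENCODE M21 on GRCm38), as normalized counts per kilobase averaged over the 6 vehicle livers. Bax stood highest at 797, followed by Ccng1 at 313, Trp53inp1 at 237, Mdm2 at 234, Fas at 229, Cdkn1a at 210, Bbc3 at 156, Phlda3 at 74.8, Gadd45b at 55.8 and Eda2r at 12.6. Neighbours in this order were apart without overlap of the vehicle mice between Bax and Ccng1, Bbc3 and Phlda3, and Gadd45b and Eda2r, and overlapped in the other 6 steps. The 2 members with the largest fall were thus among the 3 lowest in vehicle liver.

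The profile of Cdkn1a over the 18 livers was compared with those of 10883 genes with a mean of at least 50 normalized counts, by the root mean square difference of z-scored log2 values (0 would be an identical profile). The 5 nearest genes were Dhrs9, a retinol and steroid dehydrogenase, at 0.447, Denn2b at 0.484, Prkab2, a subunit of the energy sensor AMPK, at 0.484, Insig2, which holds back sterol synthesis, at 0.493, and Fchsd1 at 0.496. Being chosen for likeness over the same livers, they are described with no test, their means in vehicle and GDF15 livers being 160 and 64.2 normalized counts for Dhrs9, 1047 and 737 for Denn2b, 98.3 and 66.9 for Prkab2, 7423 and 4892 for Insig2, and 90.8 and 37.2 for Fchsd1. Among the members, Bax was nearest to Cdkn1a at 0.619 (rank 44), then Mdm2 at 0.647 (rank 76), Phlda3 at 0.677 (rank 105) and Trp53inp1 at 0.706 (rank 155), while Fas, Ccng1, Gadd45b and Bbc3 were at 0.869 to 1.10 (ranks 717 to 2327). Eda2r is not in this ranking, its mean being below 50.

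The wider pathway was read from lists of 112 genes in all, 110 of them in the table. Of 34 other p53 target genes, 13 fell and 5 rose against vehicle, where 33.3% of all tested genes changed, and 12 fell and 4 rose against pair-fed mice, where 27.1% did, with median changes of -0.20 and -0.08. Among those that fell were Ddit4l, an inhibitor of mTOR signalling (-1.50 ± 0.29, DESeq2 adjusted p = 3.9e-06), and Tnfrsf10b, the mouse TRAIL receptor (-1.25 ± 0.26, DESeq2 adjusted p = 1.65e-05), which like Eda2r is a low gene of the tumour necrosis factor receptor family, with means of 62.4 in vehicle and 26.4 normalized counts in GDF15 livers. Rap2b, a small GTPase, was at -0.92 ± 0.18 (DESeq2 adjusted p = 1.11e-05), Plk2, a polo-like kinase, at -0.86 ± 0.19 (DESeq2 adjusted p = 9.48e-05), Apaf1, the core of the apoptosome, at -0.70 ± 0.17 (DESeq2 adjusted p = 0.000254), Zmat3, an RNA-binding protein, at -0.55 ± 0.10 (DESeq2 adjusted p = 3.21e-07) and Aen, an exonuclease, at -0.45 ± 0.10 (DESeq2 adjusted p = 4.2e-05). For Ddit4l, Tnfrsf10b, Rap2b, Plk2, Apaf1, Zmat3 and Aen, all 6 GDF15 livers were below the whole vehicle range, as was found for 6.94% of all tested genes. Against pair-fed mice 6 of these 7 fell too, and Apaf1 (-0.34, DESeq2 adjusted p = 0.116) did not pass. The low genes Gtse1 and Psrc1 also fell against vehicle without overlap. Sulf2 (-0.50 ± 0.17, DESeq2 adjusted p = 0.0117), Trp53i11 (-0.47 ± 0.11, DESeq2 adjusted p = 0.000125), Perp and Prdm1 fell with 5 of 6 GDF15 livers below the vehicle range.

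Those that rose did so by little. Ninj1, whose protein ruptures the membrane of dying cells, rose by 0.34 ± 0.06 (DESeq2 adjusted p = 3.76e-07) with all 6 GDF15 livers above all vehicle livers, Dcxr, a xylulose reductase, by 0.33 ± 0.13 (DESeq2 adjusted p = 0.0443), Sesn1, a sestrin that restrains mTORC1, by 0.26 ± 0.10 (DESeq2 adjusted p = 0.0307), and Tob1, an antiproliferative protein, by 0.21 ± 0.08 (DESeq2 adjusted p = 0.032). Against pair-fed mice Ninj1 and Dcxr rose too, while Sesn1 (0.17, DESeq2 adjusted p = 0.195) and Tob1 (0.14, DESeq2 adjusted p = 0.204) did not pass. The liver's own Gdf15, itself a p53 target, had means of 1162 with vehicle, 965 with GDF15 and 1077 normalized counts with pair-feeding, and its difference of -0.27 ± 0.40 from vehicle did not pass (DESeq2 adjusted p = 0.643). The list named 35 other targets, 34 of which were in the table, and of the 28 of 35 with a promoter window 7 held a decamer and 1, Gtse1, a full pair.

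**Figure D4:**
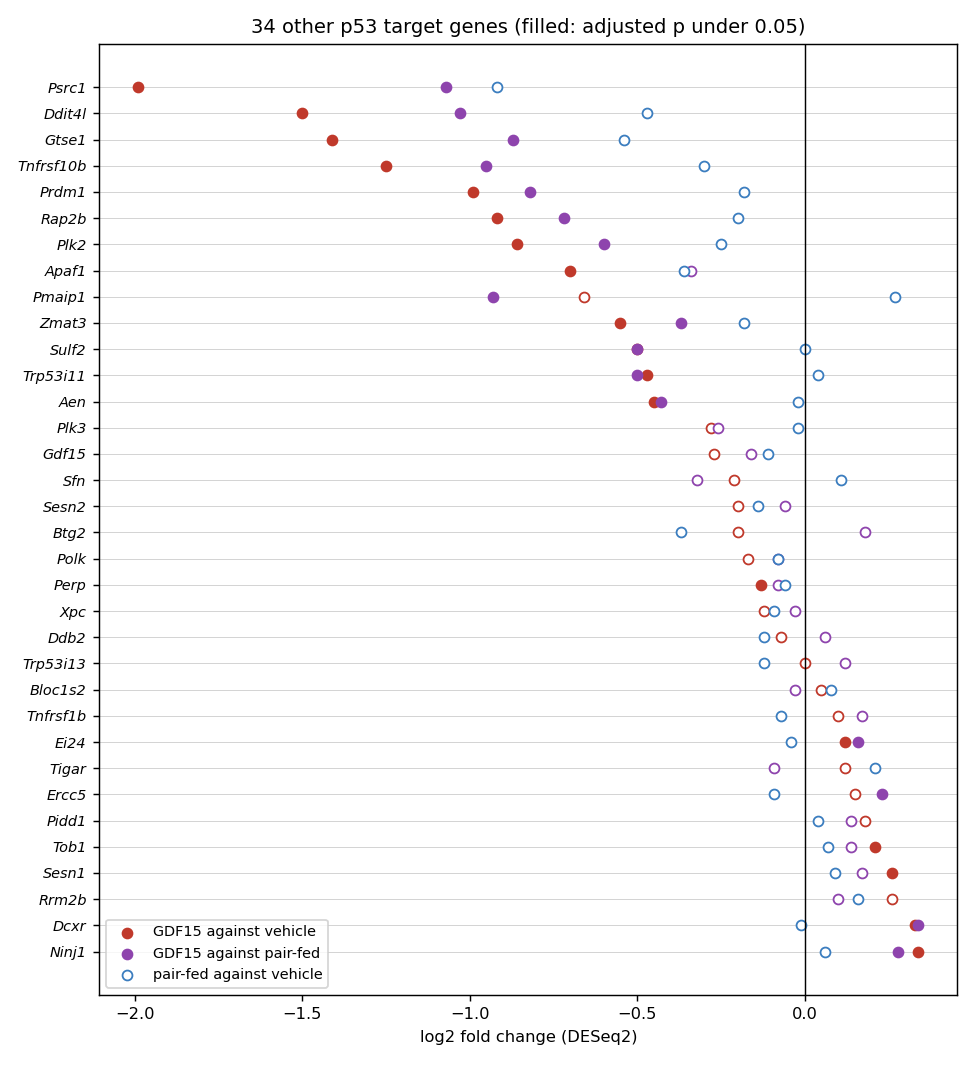
DESeq2 log2 fold change (horizontal axis) of 34 other p53 target genes (rows, ordered by the value against vehicle) in 3 comparisons, filled where the adjusted p was under 0.05. Ddit4l lies at -1.50, Tnfrsf10b at -1.25 and Ninj1 at 0.34 against vehicle, and every pair-fed against vehicle point is open.

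Of 10 tested regulators and sensors of p53, 2 fell and 1 rose against vehicle, where 33.3% of all tested genes changed. Atr, a kinase that signals stalled replication, fell by 0.39 ± 0.09 (DESeq2 adjusted p = 7.48e-05), as did its effector Chek1 (-0.94 ± 0.32, DESeq2 adjusted p = 0.0134), a low gene with means of 20.2 and 10.6 normalized counts. Mdm4, the partner of Mdm2, rose by 0.17 ± 0.06 (DESeq2 adjusted p = 0.014). Atm, Chek2, Usp7, Ppm1d, Ep300 and Hipk2 lay between 0.21 and -0.07 and did not pass.

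The list of the Gadd45 family and the inhibitors of cyclin-dependent kinases held 12 genes, retinoblastoma family genes and Gadd45gip1 included. Of these, 1 fell and 2 rose against vehicle, where 33.3% of all tested genes changed. None of these 3 is itself a member of the Gadd45 or Cdkn gene families. Rbl1, the retinoblastoma-like p107 of cycling cells, fell by 0.83 ± 0.24 (DESeq2 adjusted p = 0.00257), and Rbl2, its relative p130 of resting cells, rose by 0.42 ± 0.10 (DESeq2 adjusted p = 0.000114). Gadd45gip1, whose protein binds GADD45 proteins, rose by 0.19 ± 0.07 (DESeq2 adjusted p = 0.0316). Gadd45a (-0.26 ± 0.26, DESeq2 adjusted p = 0.462) and Gadd45g (0.70 ± 0.63, DESeq2 adjusted p = 0.41) did not pass against vehicle, nor did Cdkn1b (0.14 ± 0.07, DESeq2 adjusted p = 0.105), Cdkn1c (-0.16 ± 0.18, DESeq2 adjusted p = 0.542) or Cdkn2c (-0.40 ± 0.18, DESeq2 adjusted p = 0.0791). Against pair-fed mice 1 gene of this list fell and 4 rose, where 27.1% of all tested genes changed. Among those that rose were the inhibitors Cdkn1b (0.24, DESeq2 adjusted p = 0.00527) and Cdkn2d (0.47, DESeq2 adjusted p = 0.0295). Cdkn2a, the senescence inhibitor, was at 3.64 normalized counts on average in vehicle and 2.72 in GDF15 livers, too few to compare.

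Of 26 genes of the apoptosis machinery, 3 fell and 5 rose against vehicle, where 33.3% of all tested genes changed, and both directions were seen among activators and inhibitors of death. Bmf, a BH3-only trigger like Bbc3, rose by 1.16 ± 0.28 (DESeq2 adjusted p = 0.000274) against vehicle and by 1.56 against pair-fed mice (DESeq2 adjusted p = 8.73e-07). Xiap (0.23 ± 0.07, DESeq2 adjusted p = 0.00502) and Cflar (0.29 ± 0.09, DESeq2 adjusted p = 0.00505), which inhibit caspases, rose too, as did Ripk1, a kinase of death receptor complexes (0.27 ± 0.07, DESeq2 adjusted p = 0.00054). Bcl2a1b, an inhibitor made by leukocytes that belongs to a cluster of near-identical Bcl2a1 copies and so has uncertain counts, fell by 1.81 ± 0.27 (DESeq2 adjusted p = 2.96e-09), and Bok, a relative of Bax, by 0.60 ± 0.14 (DESeq2 adjusted p = 0.000338). Bak1, the other pore former, was at -0.11 ± 0.12 (DESeq2 adjusted p = 0.497), and Fasl, the ligand of Fas, had at most a few counts per library.

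Genes of dividing cells were lower with GDF15. Of 14 proliferation markers 11 fell and 0 rose against vehicle, by a median of -1.37, where 17.5% of all tested genes fell. Against pair-fed mice 10 fell, where 13.8% of all tested genes did. Many of these markers were low, and 6 of the 14 had a mean of at least 50 normalized counts over all livers. Ccnd1 (-0.30), Ccne1 (0.06) and Pcna (0.02) did not pass against vehicle. Mki67 had a mean of 165 normalized counts with vehicle, 112 with pair-feeding and 39.0 with GDF15, a fall of 2.08 ± 0.26 against vehicle (DESeq2 adjusted p = 4.43e-13). Of 13 immediate early and stress genes, 5 fell and 3 rose against vehicle, where 33.3% of all tested genes changed. Among them were Atf3, a stress-induced repressor (-1.37 ± 0.23, DESeq2 adjusted p = 5.62e-08), and Klf6 (-1.02 ± 0.25, DESeq2 adjusted p = 0.000432), which fell, and Dusp1, a MAP kinase phosphatase (0.65 ± 0.21, DESeq2 adjusted p = 0.0101), which rose. Over all lists 35 genes fell and 16 rose of 109 tested against vehicle, which is 51 changed where 33.3% of all genes changed. Against pair-fed mice 31 fell and 16 rose of 108 tested, where 27.1% of all genes changed.

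Markers of liver cell types moved along with the groups. Over all tested genes, 33.3% changed against vehicle and 27.1% against pair-fed mice. Of 6 hepatocyte markers, 5 rose against vehicle and 5 against pair-fed mice, with summed normalized counts from 1422845 to 1822025 in vehicle, from 1285622 to 2012136 in pair-fed and from 2010547 to 2367398 in GDF15 livers. Most of this sum was Alb, with means of 1232000 (Vehicle), 1237000 (PairFed) and 1647000 (GDF15). Of 10 stellate cell and fibroblast markers, 9 fell against vehicle and 8 against pair-fed mice, and their sum ran from 8124 to 14908 in vehicle, from 7107 to 12238 in pair-fed and from 3947 to 5738 in GDF15 livers. Of 10 macrophage and leukocyte markers, 9 and 7 fell in these comparisons, with sums from 5529 to 10960, from 5578 to 9161 and from 3040 to 6501. Of 6 cholangiocyte markers, 6 and 2 fell, with sums from 2386 to 8695, from 2179 to 6061 and from 1040 to 2101. Most of this sum was Spp1, with means of 4867 (Vehicle), 3145 (PairFed) and 1227 (GDF15). Spp1 and Muc1 were the 2 that fell against pair-fed mice, while Krt19, Krt7, Epcam and Sox9 did not pass there. Of 6 endothelial markers, 1 fell and 1 rose against vehicle and 1 fell against pair-fed mice, with sums from 2702 to 3659, from 3020 to 3898 and from 2067 to 3720. Of 3 adipocyte markers in the table, Adipoq and Plin1 were at or near 0 in all groups and Cfd, which the liver can also express, fell in both comparisons, its means being 120 (Vehicle), 70.4 (PairFed) and 10.02 (GDF15). No marker of the other lists was at 0 in a whole group. The part of these shifts in the falls of Phlda3, Eda2r, Bax and Ccng1 was not tested.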

How the data were processed

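Liver RNA of 18 mice (6 per group) was sequenced. Per the study's methods and the submitters' processing notes, the authors trimmed reads with Trim Galore and quantified transcripts with Salmon on mm10 (versions and annotation are not given in the sources used here), and deposited estimated counts per gene symbol as whole numbers. The lowest row total was 5. Every column was used. Counts totalled 16508864 to 35301853 per library, and counting error is largest for the lowest genes.

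The estimated counts were tested with DESeq2 1.42.0 (R 4.3.3) over all 18 samples with group as the only term, two-sided Wald tests, default filters and Benjamini-Hochberg adjustment over all genes (threshold 0.05). Intervals are 95% and counts were log2-transformed with a pseudocount of 1 for profile distances. Alternatives were edgeR 4.0.16 quasi-likelihood tests with TMM, TMM factors in DESeq2, a filter (at least 10 counts in 6 samples), no filter, 12 samples only, a log2 fold above 1, the replicate number as a term, leaving out each mouse, replicates 1 to 3 or 4 to 6, and the 3 smaller or larger pair-fed libraries. Scripts were tested on simulated data. Each sample was taken as 1 mouse from the numbering in its title, and p-values measure the spread between these samples.

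Named genes were all 10 members, list genes past the threshold in a GDF15 comparison with the largest fold changes at a mean of at least 50 normalized counts, list genes whose role bears on a member, and the 5 profiles nearest to Cdkn1a. The members and lists were chosen with earlier results of these data known.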

Additional observations from a re-analysis of the deposited data

Results flagged for a closer look

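Gadd45b in PairFed replicate 5 had 88.1 normalized counts and stood above the other 5 pair-fed livers, its gap to the next taking 0.666 of the whole range, above Dixon's 95% critical value for a group of 6. It was the 1 of 30 groups of values (10 genes in 3 groups) that passed this limit, and chance passes about 1 in 20, or 1.5 of 30.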

How the results depend on the processing

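With 6 mice per group the intervals of Cdkn1a, Gadd45b and Trp53inp1 are wide, and low counts limit Eda2r, Phlda3 and Gadd45b. Under edgeR, TMM factors in DESeq2, the count filter, no filter, the 12 samples compared and the replicate block, 4 to 5 members changed against vehicle, 2 to 4 against pair-fed mice and 0 between pair-fed and vehicle mice. With a log2 fold above 1 required as well, 2 members (Phlda3 and Eda2r) and 17 list genes passed against vehicle and 12 list genes against pair-fed mice. With only the 3 larger pair-fed libraries, 1 member (Phlda3) and 23 list genes passed against pair-fed mice, as did 23 list genes in replicates 4 to 6. Leaving out 1 mouse gave 4 to 6 members and 44 to 52 list genes against vehicle, 2 to 4 and 41 to 47 against pair-fed mice, and 0 and 0 for pair-feeding.

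Same-numbered mice did not all deviate together (2, 3 and 4 of 6 correlations of their deviations from the group means over 0.1, in ranges of -0.277 to 0.237, -0.288 to 0.206 and 0.03 to 0.617), and 0, 2 and 1 of 6 correlated best with their own number. With the number as a block, 5, 4 and 0 members, 48, 46 and 0 list genes, and 4511, 3736 and 3 of all genes passed in the comparisons of GDF15 with vehicle, GDF15 with pair-fed and pair-fed with vehicle mice, Cdkn1a being gained against vehicle and Bax against pair-fed mice. Cdkn1a also passed in the 12 samples compared, where Ccng1 was lost against pair-fed mice, and Fas passed with edgeR or the count filter.

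Log2 differences that changed sign did so as follows, and the cause was not tested. In replicates 4 to 6, Mdm2 was at 0.032, Trp53inp1 at 0.39 and Gadd45b at 0.020 against vehicle, Cdkn1a at 0.42 and Mdm2 at 0.091 against pair-fed mice, and Mdm2 at -0.059 for pair-feeding. In replicates 1 to 3, Bbc3 was at -0.37 against vehicle, Trp53inp1 at -0.62, Bbc3 at -0.37, Fas at 0.0051 and Gadd45b at -0.035 against pair-fed mice, and Ccng1 at 0.021 and Bbc3 at 0.0017 for pair-feeding. With the 3 larger pair-fed libraries, Cdkn1a was at 0.21 and Gadd45b at -0.12 against pair-fed mice and Mdm2 at -0.10 for pair-feeding. With the 3 smaller ones, Trp53inp1 was at -0.093 against pair-fed mice, and Trp53inp1 at 0.03, Ccng1 at 0.014 and Bbc3 at 0.046 for pair-feeding. Mdm2 for pair-feeding was at -0.0028 with edgeR and -0.0002 with TMM factors. Leaving out 1 mouse, Mdm2 for pair-feeding ran from -0.044 to 0.042, Trp53inp1 from -0.27 to 0.068 against vehicle and from -0.11 to 0.23 against pair-fed mice, and Gadd45b from -0.18 to 0.20 against pair-fed mice.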
